A study of Trachemys scripta elegans with 3 samples.

Results

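The sodium-potassium ATPase and its FXYD subunits were followed in the livers of red-eared sliders (Trachemys scripta elegans), a freshwater turtle, across 3 salinities. Unigenes, the assembled gene units of the transcriptome, were taken as members where the text of their best protein match named a sodium/potassium-transporting ATPase or an FXYD domain, or where a KEGG gene name began with ATP1A, ATP1B, ATP1G or FXYD. Matches to rat, mouse or rabbit proteins were left out, which removed 1 of 18 unigenes, a rat-matched beta-1 unigene listed at 0 in all 3 libraries. The 17 members, of 205118 unigenes in all, were 5 of the alpha class, 4 of the beta class, 6 of the FXYD class and 2 of the NKAIN class. One of them, c104071_g1, was named in the choice, and the family was chosen by its FPKM in these 3 libraries, so its differences between salinities are a description and were not tested.

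The turtles, 9 in all and 2 years old, were held for 30 days in saltwater of 15 psu, in saltwater of 5 psu or, as the control, in freshwater of 0 psu, with 1 pool per salinity. All were fed the same commercial diet and fasted before sampling. The livers of the 3 turtles of a salinity went into 1 sequencing library, so there are no replicates, no value has an error, and the effect of salinity cannot be told apart from that of the pool or of the 3 animals in it. The sample labels write the salinities as 0, 5 and 15 percent.

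The sodium-potassium ATPase moves sodium out of the cell and potassium in, at the cost of ATP, and so maintains the gradients that drive sodium-coupled uptake. Its alpha subunit carries the catalytic and transport sites, and its beta subunit is needed for the folding of alpha and its delivery to the plasma membrane. FXYD proteins are small single-span membrane proteins that bind the alpha-beta pair and tune its affinity for ions and its rate. In the basolateral membrane of hepatocytes the pump maintains the sodium gradient used to take up bile acids and amino acids.

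Levels are given as FPKM, fragments scaled by the authors for unigene length and for the size of the library. A log2 change is on the log2(FPKM + 0.1) scale, which understates the change of low unigenes. A unigene was counted as changed at 2-fold or more on that scale, among unigenes that reached FPKM 1 in at least 1 library of the pair. The comparisons of 5 with 0 psu and of 15 with 0 psu share the 0 psu library, and their values are set side by side only.

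Of the 17 members, 13 reached FPKM 1 in some library, 11 were above 0 in every library, 4 in some libraries only, and 2 were listed at 0 throughout. Members with FPKM of at least 10 in some library numbered 5. They were the FXYD2 unigene c104071_g1, the alpha-1 unigene c110726_g1, the FXYD5 unigene c103628_g1, the beta-3 unigene c101653_g1 and the NKAIN4 unigene c202385_g1. The first 4 of these were above 0 at every salinity. Of these 4, c104071_g1 had the highest FPKM and beta-3 the lowest in every library, with alpha-1 above FXYD5 in freshwater and at 15 psu and FXYD5 above alpha-1 at 5 psu.

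**Figure D1:**
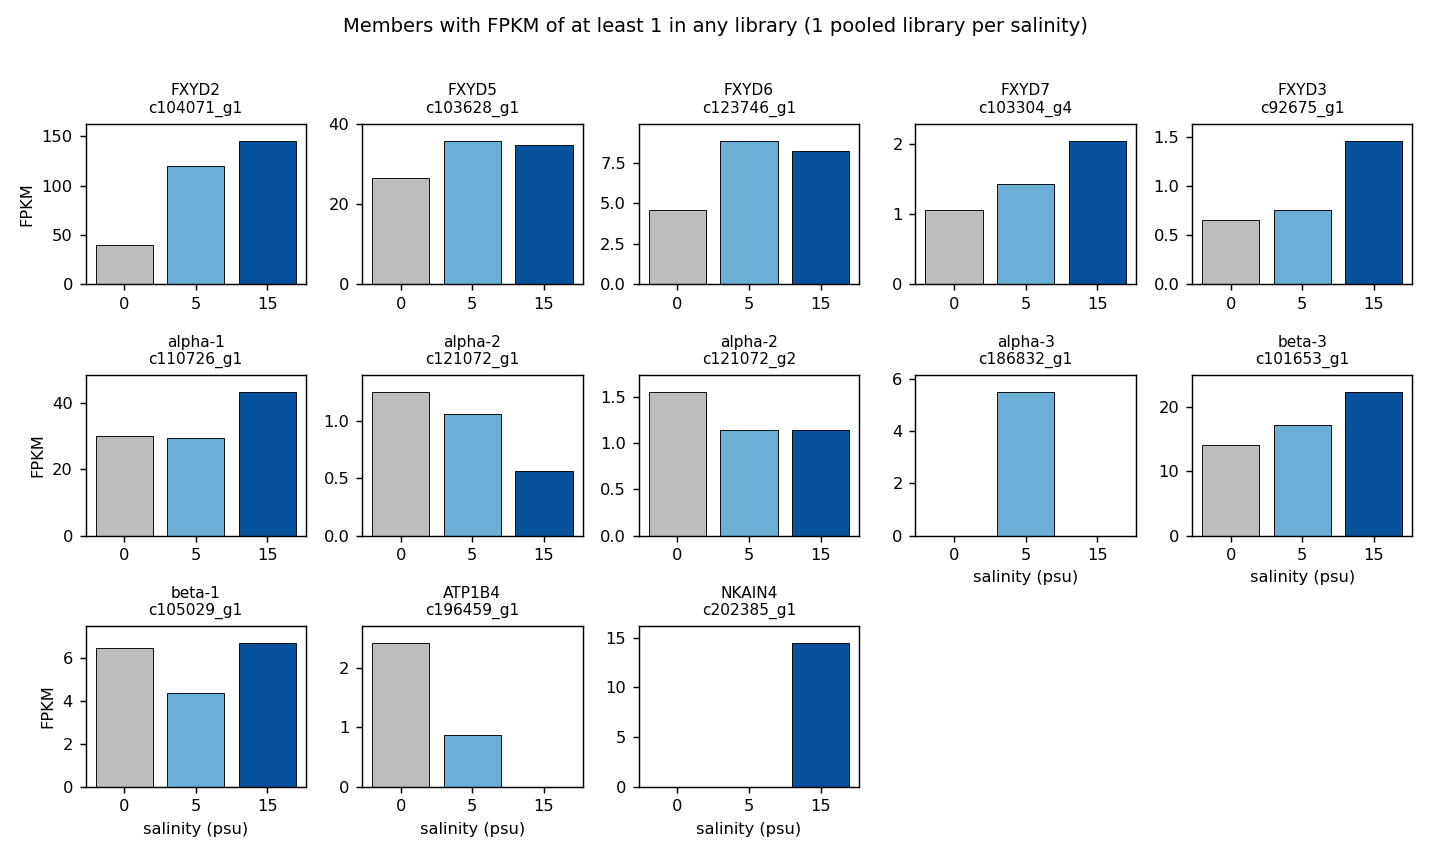
FPKM (vertical axes, each panel with its own scale from 0) at 0, 5 and 15 psu for the 13 members that reached FPKM 1, 1 bar per pooled library with no error. The FXYD2 unigene stands at 40.1, 120.3 and 145 FPKM, while the alpha-3 and NKAIN4 unigenes have a bar in 1 library only.

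Among the regulatory subunits, the largest values belonged to c104071_g1, named FXYD2, the gamma subunit, which in the mammalian kidney lowers the affinity of the pump for sodium. It had 40.1 FPKM in freshwater, 120.3 at 5 psu and 145 at 15 psu. It was 3.00-fold higher at 5 psu than at 0 psu, a log2 change of 1.58, and 3.62-fold higher at 15 psu than at 0 psu, a log2 change of 1.85. Between the saltwater libraries the difference was small, 1.21-fold higher at 15 psu than at 5 psu, a log2 change of 0.27. By level it was the 1998th unigene of 102765 above 0 at 0 psu, the 596th of 119996 at 5 psu and the 509th of 102228 at 15 psu. In bulk tissue, more cells of a type that express a gene and more RNA of it per cell cannot be told apart.

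The identity of c104071_g1 is not simple. Its best protein match is a gamma subunit of the pump from the ruff, a wading bird, its Swissprot match is the gamma subunit of Xenopus, and it carries the Pfam domain shared by the gamma subunit, phospholemman and MAT8. Beside FXYD2 (ATP1G1), KEGG gave it the names of FXYD6 and of the membrane serine proteases TMPRSS13 and TMPRSS11. It thus held 3 KEGG identifiers. Of the 20407 unigenes with any such identifier, 373 (1.83%) held 3 or more. In the human genome FXYD6, FXYD2 and TMPRSS13 are neighbours, and transcripts that run through FXYD6 into FXYD2 are annotated there. Whether the FPKM of this unigene counts 1 gene or several was not tested. A separate unigene matched to TMPRSS13, c95142_g1, had FPKM of 0.27 in freshwater, 0.99 at 5 psu and 1.08 at 15 psu, far below c104071_g1 in each library. Its log2 changes against 0 psu were 1.56 at 5 psu and 1.67 at 15 psu, beside the 1.58 and 1.85 of c104071_g1. At 5 against 0 psu c95142_g1 was too low to be counted, and both of its changes rest on a low freshwater value. No likeness is therefore read from them. Whether these unigenes belong to the same transcript was not tested.

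FXYD5, or dysadherin, which in mammals weakens adhesion between epithelial cells, was the next FXYD unigene by level. Its FPKM was 26.6 in freshwater, 35.8 at 5 psu and 34.6 at 15 psu. The log2 change was 0.43 at 5 psu and 0.38 at 15 psu against 0 psu, under 2-fold in both. FXYD6, known in mammals from brain and inner ear, had 2 unigenes. The higher, c123746_g1, was at 4.61 FPKM in freshwater, 8.85 at 5 psu and 8.23 at 15 psu, and at 1.92-fold and 1.79-fold of freshwater it stopped just short of the 2-fold criterion. The lower, c101912_g1, was at 0.22, 0.82 and 0.78 FPKM at 0, 5 and 15 psu, too low to be counted. Both FXYD6 unigenes thus stood higher in the saltwater libraries, with 5 psu slightly above 15 psu. Summed, they gave 4.83, 9.67 and 9.01 FPKM at 0, 5 and 15 psu.

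The remaining FXYD unigenes were low. FXYD3, also called MAT8, which in mammals is found in stomach, colon and some tumours, was c92675_g1 with FPKM of 0.66 in freshwater, 0.76 at 5 psu and 1.46 at 15 psu. It passed 2-fold at 15 psu against 0 psu with a log2 change of 1.04, just above the criterion. FXYD7, a brain protein in mammals, was c103304_g4 with 1.06, 1.43 and 2.04 FPKM at 0, 5 and 15 psu, and its log2 change of 0.88 at 15 psu against 0 psu did not pass. Unlike FXYD5 and FXYD6, these low unigenes were highest at 15 psu. Their unigene names rest on short proteins, and Swissprot placed c103304_g4 with FXYD6.

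All 6 FXYD unigenes had a higher FPKM at 5 psu than at 0 psu, and all 6 had a higher FPKM at 15 psu than at 0 psu. With an upper-quartile rescaling, chosen for these counts after seeing the data, the first count was 5 of 6. Beside them, 55.9% of all unigenes with a match in the NR protein database and above 0 in both libraries were higher at 5 psu and 50.2% at 15 psu, by any amount. The 6 are not independent: 2 are named FXYD6 and can be fragments of 1 transcript, and c104071_g1, chosen by its values, also carries that name. Swissprot placed c103304_g4, counted here as FXYD7, with FXYD6 as well. At 0 and 5 psu FXYD3 and c101912_g1 were under FPKM 1. The counts are therefore no measure of a rise across the class. Against 5 psu, 3 of the 6 were higher at 15 psu and 3 lower, beside 46.5% of such unigenes higher. With the upper-quartile rescaling all 6 were higher, but that scale put the median log2 ratio of unigenes with FPKM 1 in every library at 0.36. The summed FPKM of the class was 73.2 in freshwater, 167.9 at 5 psu and 192.4 at 15 psu, a log2 change of 1.20 at 5 psu and 1.39 at 15 psu against 0 psu. Without c104071_g1 the sum was 33.2, 47.6 and 47.1 FPKM at 0, 5 and 15 psu, and neither log2 change, 0.52 and 0.51, reached 2-fold. The 2-fold difference of the class therefore rests on 1 unigene, which held 54.7% of its sum in freshwater, 71.6% at 5 psu and 75.5% at 15 psu.

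**Figure D2:**
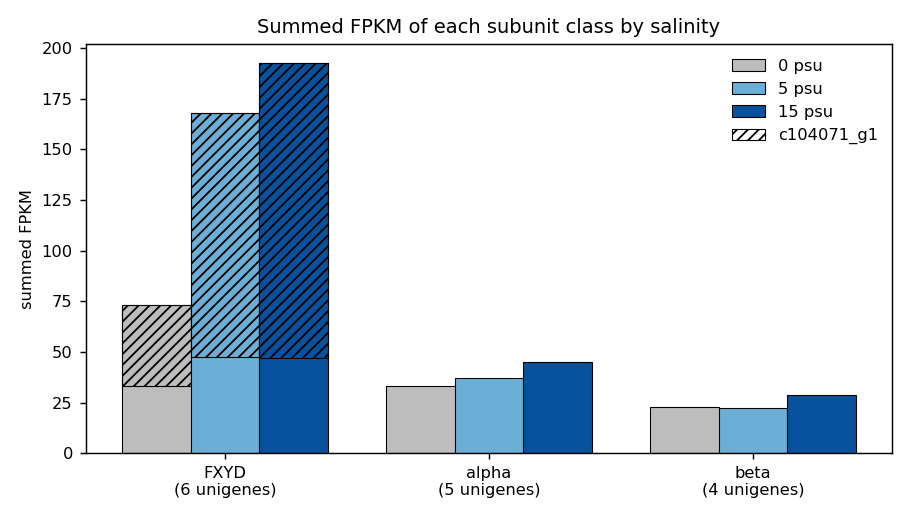
Summed FPKM (vertical axis) of the FXYD, alpha and beta unigenes at 0, 5 and 15 psu, with the part from c104071_g1 hatched, 1 pooled library per bar. The FXYD sum is 73.2, 167.9 and 192.4, of which the unhatched part is 33.2, 47.6 and 47.1, while the alpha sum reaches 45.1 and the beta sum 29.0 at most.

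The catalytic class was almost entirely alpha-1, the isoform found in nearly all animal cells. Its unigene c110726_g1 had FPKM of 30.2 in freshwater, 29.4 at 5 psu and 43.4 at 15 psu. The 0 and 5 psu libraries were nearly equal, and the 15 psu library was higher by a log2 change of 0.52 against 0 psu and 0.56 against 5 psu, both under 2-fold. Alpha-1 did not share the pattern of FXYD2, whose difference lay mostly between freshwater and 5 psu. The ratio of c104071_g1 to alpha-1 was 1.33 in freshwater, 4.09 at 5 psu and 3.35 at 15 psu.

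Alpha-2, typical of muscle and astrocytes in mammals, had 3 unigenes. The unigene c121072_g1 was at 1.25 FPKM in freshwater, 1.06 at 5 psu and 0.56 at 15 psu, a log2 change of -1.03 at 15 psu against 0 psu that just passed 2-fold. Its companion from the same assembly component, c121072_g2, was at 1.55 FPKM at 0 psu and at 1.14 in both saltwater libraries, and the third, c188158_g1, was listed at 0 throughout. Alpha-2 was thus low everywhere and in no case higher in saltwater. The alpha-3 unigene c186832_g1, named by Swissprot for the neuronal isoform but matched in NR to an uncharacterized alligator protein, was listed at 5.5 FPKM at 5 psu and at 0 in both other libraries. The alpha sum was 33.0 in freshwater, 37.1 at 5 psu and 45.1 at 15 psu, and alpha-1 made up 91.5%, 79.3% and 96.2% of it. The excess of the 5 psu sum over the 0 psu sum came from c186832_g1 alone, since the alpha-1 and alpha-2 unigenes above 0 were all lower at 5 psu.

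Of the beta subunits, beta-3 led. Its unigene c101653_g1 had FPKM of 14.1 in freshwater, 17.1 at 5 psu and 22.3 at 15 psu, with log2 changes of 0.28 and 0.66 at 5 and 15 psu against 0 psu. A second beta-3 unigene, c101653_g2, was listed at 0 in all 3. Beta-1, the most widespread beta isoform in mammals, was c105029_g1 with 6.49, 4.38 and 6.71 FPKM at 0, 5 and 15 psu, the lowest value being at 5 psu. None of these differences reached 2-fold, although beta-1 at 15 psu against 5 psu just did with the upper-quartile rescaling. The ratio of beta-3 to beta-1 was 3.91 at 5 psu and 3.32 at 15 psu, against 2.17 at 0 psu. The member named ATP1B4, which is a pump subunit in birds and amphibians and a nuclear protein of muscle in placental mammals, was c196459_g1 with 0.87 FPKM at 5 psu, against 2.42 FPKM at 0 psu, and was listed at 0 at 15 psu. It was the only beta member to pass 2-fold.

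The beta and alpha sums moved little against each other. The beta sum was 23.0 FPKM in freshwater, 22.4 at 5 psu and 29.0 at 15 psu, and the ratio of the beta to the alpha sum was 0.70, 0.60 and 0.64. Taking alpha-1, beta-1 and beta-3 alone, the ratio of beta to alpha was 0.68, 0.73 and 0.67. The FXYD sum, in contrast, was 2.22 times the alpha sum at 0 psu, 4.52 times at 5 psu and 4.27 times at 15 psu. Without c104071_g1 these ratios were 1.00, 1.28 and 1.05.

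The last 2 members, NKAIN3 and NKAIN4, are membrane proteins that bind beta-1 in mammalian and fly brain. NKAIN3, c199818_g1, was listed at 0 at 0 psu and at 0.6 and 0.78 FPKM at 5 and 15 psu. NKAIN4, c202385_g1, was listed at 14.4 FPKM at 15 psu and at 0 in both other libraries. A unigene present in only 1 pooled library gives no fold change, and the number of turtles in which it was expressed was not measured.

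**Figure D3:**
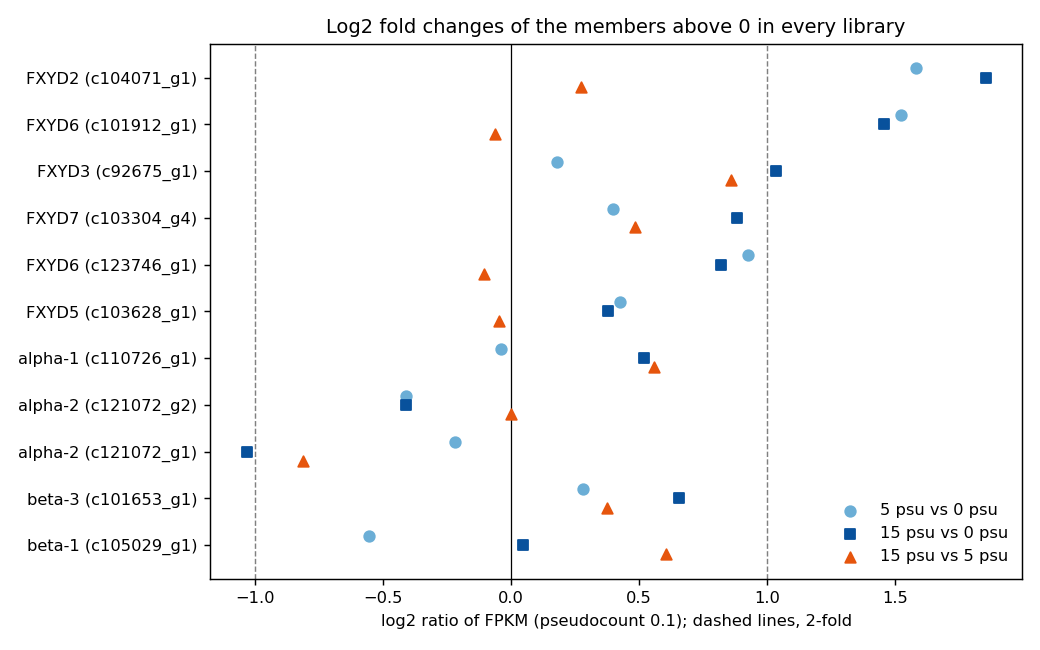
Log2 ratio of FPKM (horizontal axis, pseudocount 0.1) for the 11 members above 0 in every library, with 5 against 0 psu as circles, 15 against 0 psu as squares, 15 against 5 psu as triangles and dashed lines at 2-fold. The FXYD rows lie right of 0 against freshwater, led by FXYD2 at 1.58 and 1.85, whereas the alpha and beta rows lie on both sides.

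Counted over the family, 3 of 11 members with enough signal changed 2-fold or more at 5 psu against 0 psu, while the same rule called 65.5% of all unigenes, 37.7% higher and 27.8% lower, and 32.4% of those with an NR match. Higher were c104071_g1 and, listed at 0 in freshwater, the alpha-3 unigene. Lower was ATP1B4. For 15 against 0 psu 5 of 12 changed, beside 64.0% of all unigenes, 30.7% higher and 33.3% lower, and 32.0% with an NR match. Higher were c104071_g1, FXYD3 and NKAIN4, and lower were alpha-2 c121072_g1 and ATP1B4. For 15 against 5 psu 2 of 12 changed, beside 65.5% of all unigenes, 26.6% higher and 38.9% lower, and 32.5% with an NR match, and both, NKAIN4 higher and alpha-3 lower, were listed at 0 in 1 library of the pair. Of the members with enough signal, 8 of 11, 7 of 12 and 10 of 12 were thus under 2-fold in the 3 comparisons. The count of changed members was below the share of all unigenes in each comparison. Against the NR-matched share it was lower at 5 against 0 psu and at 15 against 5 psu and higher at 15 against 0 psu. With 11 or 12 members counted, each departure from the NR-matched share is a matter of few unigenes. At 15 against 0 psu the count ran from 2 to 7 over the settings run, so no direction is read from it.

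The median log2 change of the members counted was 0.28 at 5 psu against 0 psu, 0.59 at 15 psu against 0 psu and 0.32 at 15 psu against 5 psu. Over all unigenes counted the medians were 0.22, -0.04 and -0.26, and over those with an NR match 0.08, 0.01 and -0.06. The member medians include c104071_g1, chosen by its values. They also include members that passed the FPKM 1 filter through 1 library of the pair. At 15 against 0 psu these were NKAIN4 and FXYD3 through 15 psu, and c121072_g1 and ATP1B4 through 0 psu. The medians are therefore no measure of a rise across the family. The level of c104071_g1 places it among unigenes with an NR match, FPKM above 0 in both libraries and at least 10 in either. Of these 3.28% were 2-fold or more higher at 5 psu than at 0 psu and 3.76% at 15 psu than at 0 psu. Because c104071_g1 was chosen with its values in these libraries known, these shares do not measure how unusual it is.

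Of the 6544 unigenes with a turtle protein as best match and FPKM of at least 10 in some library, 5 lay nearest to c104071_g1 by the distance between their log2 changes against 0 psu, a measure over 3 libraries. The nearest was c119699_g1, alanine aminotransferase 1, an enzyme that joins alanine to glucose metabolism, with FPKM of 11.4, 38.6 and 37.1 at 0, 5 and 15 psu and a distance of 0.23. The others were c109346_g4, a zinc finger protein at 0.26, c107723_g1, a histone H4 transcription factor-like unigene at 0.32, c118680_g2, the transcription factor MafF at 0.35, and c108962_g1, another zinc finger protein, at 0.40.

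Other genes of sodium and ion transport were compared through 3 lists of KEGG names. Their counts stand beside the shares of all unigenes called by the same rule. These were 37.7% higher and 27.8% lower at 5 against 0 psu and 30.7% higher and 33.3% lower at 15 against 0 psu. At 15 against 5 psu they were 26.6% higher and 38.9% lower. Of 25 KEGG names of other P-type pumps, 4 were found, in 14 unigenes. They were ATP2A and ATP2B, which each cover several calcium pump genes, and ATP13A1 and ATP13A2. No unigene carried the listed names of proton or copper pumps, so the counts do not cover those pumps. None of 8 counted changed at 5 psu against 0 psu (median log2 change 0.14), and 1 of 9, the plasma membrane calcium pump ATP2B unigene c85818_g1, was higher at 15 psu (median -0.17), at 1.14 FPKM against 0.19 FPKM at 0 psu. The same unigene was the 1 of 9 that was higher at 15 psu than at 5 psu (median -0.12).

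Of 22 KEGG names of sodium-coupled carriers and channels, 14 were found in 24 unigenes. At 5 psu against 0 psu 0 of 13 were higher and 2 were lower, the bile acid carrier SLC10A1 and the sodium channel subunit SCNN1A, both listed at 0 at 5 psu (median -0.15). At 15 psu against 0 psu 5 of 19 were higher and 1 lower (median 0.00). Only 1 of those 5 was above 0 in freshwater, the amino acid carrier SLC38A2 c111441_g3, with 2.28, 2.41 and 5.62 FPKM at 0, 5 and 15 psu and a log2 change of 1.27. The lower one was SLC10A1 c181637_g1, at 15.9 FPKM at 0 psu and listed at 0 in both saltwater libraries. The other 4 were listed at 0 in freshwater. They were the glucose carrier SLC5A2 unigenes c42441_g1, at 31.1 FPKM at 15 psu and 0 at 5 psu, and c72013_g2, at 1.66 FPKM at 15 psu and 0.29 at 5 psu, and c169288_g1 and c64726_g2, named SLC4A4 by KEGG but matched to anion exchange protein 4, at 4.51 and 1.42 FPKM at 15 psu and 0 at 5 psu. At 15 psu against 5 psu 8 of 18 were higher and none lower (median 0.41), beside 26.6% of all unigenes higher and 38.9% lower. They were these 4, SLC38A2, SCNN1A c140780_g1 at 3.47 FPKM at 15 psu, the bicarbonate carrier SLC4A4 c115538_g1 at 1.93 FPKM at 15 psu against 0.76 FPKM at 5 psu, and the glucose carrier SLC5A1 c116597_g3 at 1.09 FPKM at 15 psu against 0.46 FPKM at 5 psu. Of these 8, only SLC38A2 reached FPKM 1 in both libraries. The others passed the filter through the 15 psu library alone, so no direction is read from the count or the median. Another SLC4A4 unigene from the assembly component of c115538_g1 went the other way, by less than 2-fold. It was c115538_g3, at 2.81, 2.81 and 2.05 FPKM at 0, 5 and 15 psu.

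Of 18 KEGG names of genes that act on the pump or on renal sodium uptake, 11 were found in 14 unigenes. SIK1 c121806_g3, a salt-inducible kinase that in mammalian kidney cells raises pump activity when sodium enters, had 5.58, 13.1 and 25.7 FPKM at 0, 5 and 15 psu, log2 changes of 1.21 and 2.18 against 0 psu. It was the 1 of 11 that changed at 5 psu (median 0.11). In the comparison of 15 with 0 psu it was joined by NEDD4L c121700_g1, a ubiquitin ligase that removes epithelial sodium channels, which had 3.39, 3.72 and 8.43 FPKM at 0, 5 and 15 psu, as 2 of 13 higher (median 0.37). NEDD4L c121700_g1 was also the 1 of 13 higher at 15 psu than at 5 psu (median 0.21). A second NEDD4L unigene, c121700_g3, was under 2-fold in every comparison, with 1.59, 1.5 and 2.55 FPKM at 0, 5 and 15 psu. SGK1 c88132_g2, the aldosterone-induced kinase, was at 9.5, 15.7 and 16.6 FPKM at 0, 5 and 15 psu, under 2-fold in both comparisons with freshwater.

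**Figure D4:**
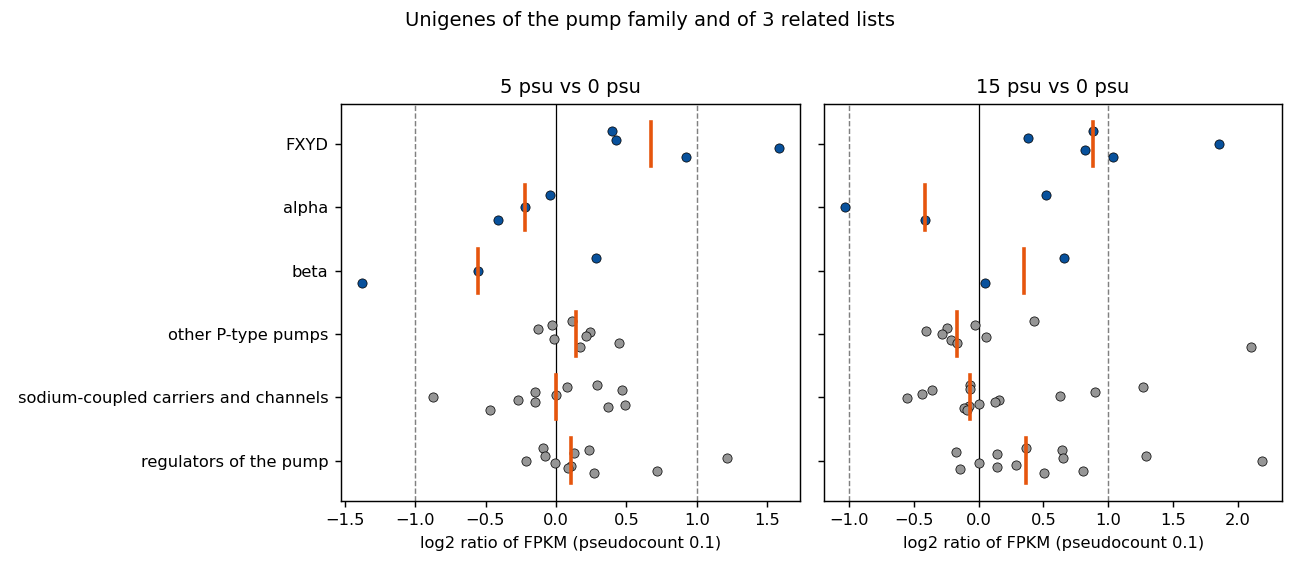
Log2 ratio of FPKM (horizontal axis, pseudocount 0.1) at 5 against 0 psu and at 15 against 0 psu for unigenes above 0 in both libraries and at FPKM of at least 1 in either, with members in blue, the 3 related lists in grey, medians of the plotted points as orange bars and dashed lines at 2-fold. The highest blue point is FXYD2 at 1.58 and 1.85, and the highest point among the regulators is SIK1 at 1.21 and 2.18.

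The liver label was checked against hepatocyte genes, of which 10 of 12 were found, with a summed FPKM of 27131 in freshwater, 15302 at 5 psu and 16945 at 15 psu. Of 18 hepatocyte unigenes counted, 0 were higher and 6 lower in either saltwater library against 0 psu, with median log2 changes of -0.59 at 5 psu and -0.48 at 15 psu. Over all unigenes 27.8% were lower and 37.7% higher at 5 psu, and 33.3% lower and 30.7% higher at 15 psu. The count lower was near that share, and 0 of the hepatocyte unigenes were higher. Most hepatocyte unigenes had FPKM of at least 10. Among unigenes with an NR match, above 0 in both libraries and at such levels, few were 2-fold or more higher. Their shares were 3.28% at 5 psu and 3.76% at 15 psu against 0 psu, so no direction is read from the 0. Among unigenes with an NR match, 32.4% at 5 psu and 32.0% at 15 psu changed either way against 0 psu. Their median log2 changes were 0.08 and 0.01. The 6 lower hepatocyte unigenes were both albumin unigenes, tyrosine aminotransferase and 3 transferrin unigenes matched to a rabbit protein and listed at 0 in saltwater. Albumin c111797_g1 was the extreme turtle-matched one, at 824 FPKM at 5 psu and 1268 FPKM at 15 psu against 4846 FPKM at 0 psu, while apolipoprotein A-I c110453_g1 was at 2403 and 2569 FPKM against 2751 FPKM and transthyretin c102322_g1 at 160.0 and 98.2 FPKM against 116 FPKM. The match text of the 3 rabbit-matched transferrin unigenes gives no genus name, so the rule against rabbit matches did not catch them. The count lower rests on them in part. Transferrin unigenes matched to a red-eared slider protein were under 2-fold against 0 psu. They were c99501_g1, at 2022, 1560 and 1524 FPKM at 0, 5 and 15 psu, and c99501_g2, at 6625, 4504 and 5198 FPKM. Markers of tissues that express FXYD2 or the other subunits were summed as well. Kidney genes (2 of 8 found, SLC12A3 and a UMOD-named unigene matched to an alpha-tectorin-like protein) gave 1.23, 0.59 and 1.17 FPKM at 0, 5 and 15 psu, and neither unigene reached FPKM 1. Bile duct genes (3 of 6) gave 52.5, 68.0 and 19.9 FPKM, of which EPCAM c112777_g1 alone gave 43.1, 58.7 and 10.3. Both SOX9 unigenes were under 2-fold in every comparison, and MUC1 c85226_g1 went the other way at 15 psu, with 1.06, 1.05 and 2.36 FPKM. Pancreas genes (3 of 6, mostly amylase) gave 91.2, 98.1 and 138.5 FPKM. Muscle genes (7 of 11) gave 82.2, 56.5 and 37.9 FPKM, with actin c95384_g3 at 23.2, 15.8 and 21.2. Of 13 muscle unigenes counted, 6 were lower and 2 higher at 5 psu against 0 psu, and 9 lower and 2 higher at 15 psu. Over all unigenes 27.8% and 33.3% were lower. NPPA c96635_g1 and c94169_g1 and MYL7 c63605_g1 were at 11.6, 5.12 and 6.27 FPKM in freshwater and listed at 0 in saltwater. ACTA1 c98768_g3 was at 1.29, 5.48 and 6.88 FPKM. Nerve genes (2 of 6) gave 9.66, 8.25 and 27.2 FPKM, of which SYT1 c124710_g2 alone gave 4.43, 4.16 and 19.2. SYT1 c54589_g1 was at 0.3, 0.38 and 1.13 FPKM. NEFL c120899_g1 was under 2-fold in every comparison, and NEFL c200619_g1 went the other way, at 0.99, 0.26 and 0 FPKM. Erythrocyte genes (2 of 5) gave 443, 637 and 368 FPKM, and testis genes (3 of 5) 214.5, 14.2 and 24.4 FPKM, the first almost wholly from c59526_g1, a unigene matched to a pig protein. The part of these cell types in the subunit values was not tested. Summed FPKM over all unigenes was 986004, 969628 and 960385 at 0, 5 and 15 psu, and beta-actin c115795_g1 was at 2495, 2548 and 2907 FPKM.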

How the data were processed

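Liver RNA of 9 turtles was sequenced as 3 pooled libraries. After trimming (SeqPrep, Sickle) and de novo assembly (Trinity), the authors estimated abundance with Bowtie and RSEM and deposited FPKM values to 2 decimals with annotations from NR, Swissprot, Pfam, COG, KEGG and GO. Versions are not given in the sources used here. Library read totals and counts per unigene were not used here, and no interval or detection limit is given. At mean FPKM from 0.3 to 1, the commonest log2 ratio was -0.35 in the 5 vs. 0 psu pair, 0.00 in 15 vs. 0 psu and 0.35 in 15 vs. 5 psu. These ratios describe the spacing of low values between libraries and are not read as changes of genes. What sets them was not tested.

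The members and lists were chosen with earlier results of these data known. With 1 library per salinity no test was run. A change was 2-fold on log2(FPKM + 0.1) among unigenes reaching FPKM 1 in the pair. Named genes were all members, changed unigenes of the 3 transport lists, and the 5 unigenes nearest c104071_g1. SGK1, the marker genes named and TMPRSS13 were chosen after their values were seen. Marker lists covered hepatocyte, erythrocyte, bile duct, kidney, muscle, nerve, testis and pancreas. Of 13 subunit names, 8 had a symbol in the RefSeq annotation of assembly CAS_Tse_1.0. Alternatives were other pseudocounts, filters, rescalings and the highest unigene per class. Some rows of the table were not analysed here. Python 3.11.15, numpy 2.4.6, pandas 2.3.3 and matplotlib 3.10.9 were used, and the counting was tested on simulated data.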

Additional observations from a re-analysis of the deposited data

How the results depend on the processing

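Over the pseudocounts and rescalings run, the log2 change of c104071_g1 against freshwater was 1.27 to 1.59 at 5 psu and 1.63 to 1.95 at 15 psu. At its level the pseudocounts change little, and no rescaling moved log2 ratios against freshwater by more than 0.32. From log2 changes of 1.58 and 1.85 these settings could not bring it under 2-fold. They are therefore no check of the difference, and c104071_g1 was chosen by its values. The number of members changed at 5 psu against 0 psu was 5 with no filter, against 3. At 15 psu against 0 psu it was 3 with a pseudocount of 1, 2 with a filter of FPKM 5 and 3 among members above 0 in both libraries, against 5. At 15 psu against 5 psu it was 4 with the upper-quartile rescaling, 3 of them higher, and 0 among members above 0 in both libraries, against 2. The log2 change of the FXYD sum at 5 psu was 0.88 with the upper-quartile rescaling and 0.52 without c104071_g1, and at 15 psu 0.51 without it. Leaving out members at 0, leaving out c104071_g1 and rescaling the counts of FXYD unigenes with a higher FPKM were chosen after seeing the data. The alpha sum at 5 psu against 0 psu, a log2 change of 0.17, was -0.15 with the upper-quartile rescaling and -0.04 with the highest unigene alone. The FXYD3 call at 15 psu was lost with a pseudocount of 1 (0.57) and relative to beta-actin (0.83), and that of c121072_g1 with a pseudocount of 1 (-0.53) and the upper quartile (-0.95). The ATP1B4 call at 5 psu was lost with a pseudocount of 1 (-0.87). With the upper quartile, beta-1 (1.00) and FXYD3 (1.22) passed 2-fold at 15 psu against 5 psu. The upper quartile moved all log2 ratios by -0.32 at 5 psu and 0.09 at 15 psu against 0 psu and by 0.41 at 15 against 5 psu, and beta-actin moved them by -0.22 at 15 psu against 0 psu. The upper quartile and beta-actin scales both left the median log2 ratio of unigenes with FPKM 1 in every library off 0. With the upper quartile it was -0.23 at 5 against 0 psu, 0.11 at 15 against 0 psu and 0.36 at 15 against 5 psu. Relative to beta-actin it was 0.05, -0.20 and -0.24 in the same comparisons. Of 31 member results, 26 stayed on the same side of 2-fold throughout. No paired analysis was possible because there is 1 library per salinity.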

Other observations

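The Pfam domain of the FXYD family was also found in 3 unigenes that the protein match did not name as subunits. The unigene c123563_g1, whose best match is a putative L-aspartate dehydrogenase, had FPKM of 87.1 in freshwater, 78.4 at 5 psu and 84.0 at 15 psu. The unigene c118243_g1, matched to a complement decay-accelerating factor-like protein, had 0.88, 3.38 and 0.86 FPKM at 0, 5 and 15 psu, so that the 5 psu library alone was high. The third, c134609_g1, had no NR match and was listed at 0 in all 3 libraries. No unigene was named FXYD1, FXYD4, ATP1A4 or ATP1B2. In the RefSeq annotation of assembly CAS_Tse_1.0, FXYD5, FXYD1 and FXYD3 lie close together, with LGI4 between FXYD1 and FXYD3.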
